A study of Mus musculus with 8 samples.

Results

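The genes described here encode the signals through which skeletal cells support osteoclasts, together with the receptors of those signals. They are Tnfsf11 (RANKL), its receptor Tnfrsf11a (RANK) and its decoy receptor Tnfrsf11b (osteoprotegerin, OPG), and Csf1 (M-CSF) and Il34 (IL-34) with their shared receptor Csf1r. Members were the probe sets annotated with exactly 1 gene symbol equal to one of these names, which gave 14 of 45037 probe sets that are not controls, for 6 of 18193 genes. Tnfsf11, Tnfrsf11b and Tnfrsf11a each had 2 probe sets, Csf1 had 4, Csf1r had 3 and Il34 had 1.

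Osteoclasts are the cells that resorb bone and calcified cartilage, and they form from precursors of the monocyte lineage. M-CSF, or IL-34, keeps these precursors alive through CSF1R, and RANKL on or shed from skeletal cells drives them into osteoclasts through RANK. OPG is secreted by skeletal cells and binds RANKL before RANK can, so the pair of RANKL and OPG is known as a regulator of bone resorption. Prostaglandin E2, parathyroid hormone, vitamin D and cytokines of the interleukin-6 family are known to raise RANKL in osteoblasts and stromal cells. In a fracture callus osteoclasts remove calcified cartilage and remodel the woven bone that replaces it.

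Expression was measured on Affymetrix mouse arrays in 2 populations sorted directly from femoral fracture calluses of male C57/Bl6 mice aged 10 to 12 weeks, with no culture step. Skeletal stem cells (SSCs, 4 arrays) were sorted as cells positive for CD51 and CD200 and negative for CD45, Ter119, Tie2, 6C3, Thy1 and CD105. Bone, cartilage and stroma progenitors (BCSPs, 4 arrays), which lie downstream of SSCs, were sorted with the same negative markers except CD105, as cells positive for CD51 and CD105. Each of 4 experiments gave 1 array of each population, from 10000 sorted cells per population according to the labels. The fractures were bicortical and held by an intramedullary pin. The labels place the harvest at day 7 after fracture, while the methods of the study give a later day. All mice were fractured, so no uninjured bone was compared, and the labels do not say how many mice went into a sort. The study describes the arrays as coming from calluses of 4 different mice, so the spread between arrays of a population includes that between animals and between experiments.

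Each probe set has a deposited activity score, which runs from about -100 (inactive) to +100 (active). It places an array within the range of that same probe set over a large public collection of mouse arrays, and 0 is the threshold of the probe set. The score is neither a log value nor an amount of mRNA. It therefore cannot rank 1 gene above another, and differences are given in points. Between 29.0% and 31.0% of probe sets scored above 0 on each array. The 95th percentile of 49 probe sets for genes of retina, liver, testis and other unrelated tissues, used as a silent reference, lay between -10.3 and -3.11. In sorted bulk samples, fewer cells with a transcript and less transcript per cell cannot be told apart.

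RANKL and OPG were the only members with a probe set above its threshold on all 8 arrays, and M-CSF, IL-34, RANK and CSF1R were below threshold by every probe set on every array. Of the 14 member probe sets, 2 scored above 0 on all 8 arrays, 1 on a single array and 11 on none. Among all probe sets, 16.1% were above 0 on all 8 arrays and 49.5% on none. The 10 probe sets of the 4 genes below threshold lay between -97.3 and -19.1, and on no array did any of them exceed that silent 95th percentile. A score below 0 marks a low place within that probe set's range and is no evidence that the transcript is absent.

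**Figure D1:**
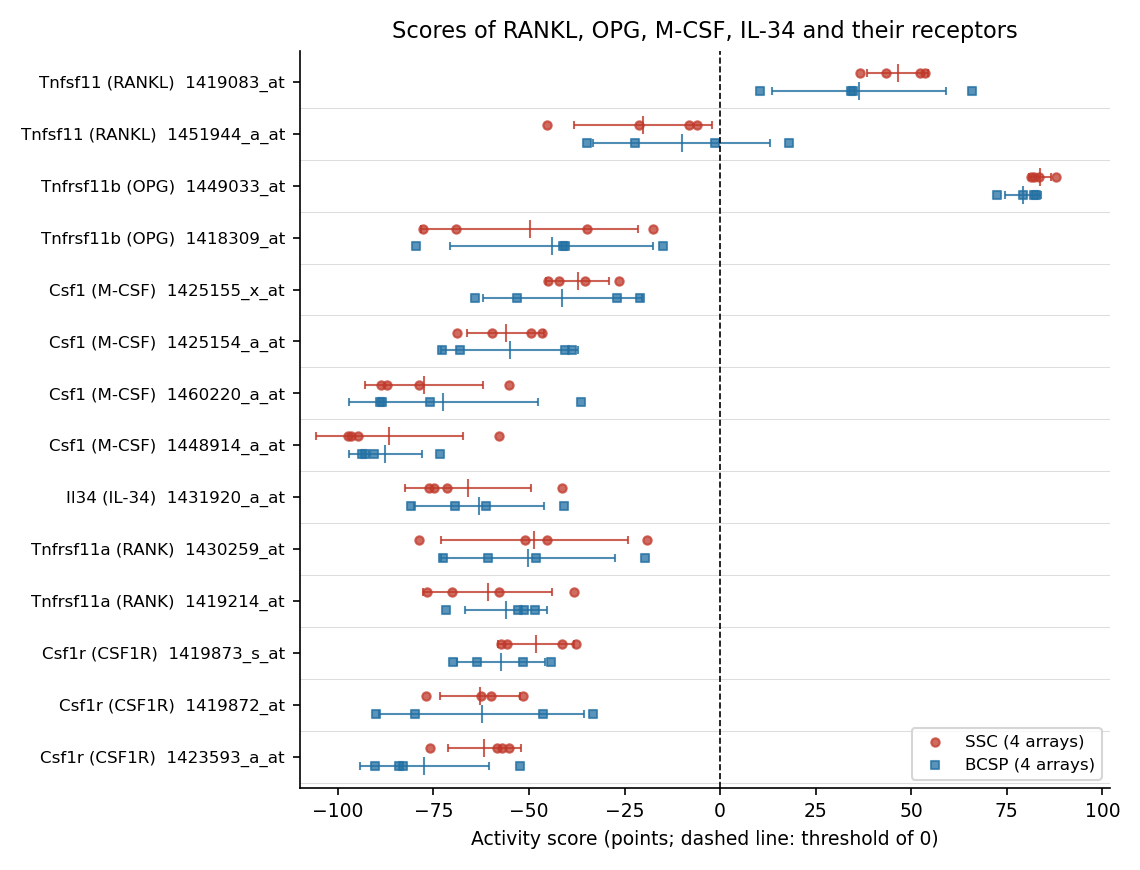
Activity score of each member probe set (rows) on 4 SSC and 4 BCSP arrays, from -100 (inactive) to +100 (active). Points are arrays, bars are mean and SD, and the threshold of 0 is dashed. Only 1 probe set of RANKL (10.4 to 65.8) and 1 of OPG (72.5 to 87.9) lie above 0 on every array.

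Tnfsf11 encodes RANKL, the membrane-bound or shed cytokine of the TNF family that osteoclast precursors need to differentiate. Its probe set 1419083_at scored 43.3, 36.6, 53.5 and 52.4 on the SSC arrays of experiments 1 to 4, and 10.4, 34.3, 34.7 and 65.8 on the BCSP arrays. All 8 values were above 0, the lowest and the highest were both BCSP arrays, and the groups overlapped. The score averaged 46.5 ± 8.01 in SSCs and 36.3 ± 22.7 in BCSPs (SD, n = 4 each).

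The other Tnfsf11 probe set did not place the gene above its threshold. 1451944_a_at, whose suffix marks probes shared by several transcripts of a gene, scored -5.97, -8.07, -45.4 and -21.2 in SSCs of experiments 1 to 4. It scored 18.04, -1.43, -34.7 and -22.2 in BCSPs, so that the BCSP array of experiment 1 alone was above 0. That array was also the one with the lowest score by 1419083_at. The probe sets therefore disagreed on whether Tnfsf11 was active on 7 of the 8 arrays, and the call of RANKL as active rests on 1 of 2 probe sets.

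The sequence upstream of Tnfsf11 is shown beside that of Csf1, to set the start regions of these osteoclast cytokines side by side. Tnfsf11 was above its threshold on all 8 arrays by 1 of 2 probe sets, and Csf1 was below it by all 4. Il34, also below its threshold, had no window in the table used here. Each window holds the 250 bases before the RefSeq gene start (build GRCm38.p6), read 5′ to 3′ on the strand of the gene, which is the minus strand for both. The Tnfsf11 window lies at chr14:78308044-78308293 and the Csf1 window at chr3:107760470-107760719. Both windows were searched on both strands for the TATA box as TATAA, for the CCAAT box by its own letters, for the GC box as GGGCGG, for an NF-kB element as GGGACTTTC, for the AP-1 element as TGAGTCA and for the Runx element as TGTGGT. Capitals mark the matches.
Tnfsf11: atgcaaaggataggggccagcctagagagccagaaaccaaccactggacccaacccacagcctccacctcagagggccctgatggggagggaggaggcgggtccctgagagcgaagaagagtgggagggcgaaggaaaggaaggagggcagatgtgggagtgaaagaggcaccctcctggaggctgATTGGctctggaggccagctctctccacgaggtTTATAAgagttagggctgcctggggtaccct
Csf1: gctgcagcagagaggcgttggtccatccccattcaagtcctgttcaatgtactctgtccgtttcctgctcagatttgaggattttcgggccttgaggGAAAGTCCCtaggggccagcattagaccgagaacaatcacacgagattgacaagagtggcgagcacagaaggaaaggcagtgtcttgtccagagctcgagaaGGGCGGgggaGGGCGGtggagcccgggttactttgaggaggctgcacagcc

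The Tnfsf11 window held TATAA from base -30 to -26 before the gene start, overlapping its own reverse complement TTATA from -31 to -27, and CCAAT on the opposite strand from -64 to -60. Of 32851 windows of the same length, 22.8% held TATAA and 33.8% held CCAAT on either strand. The Csf1 window held GGGCGG from -51 to -46 and from -41 to -36, a motif of 32.7% of windows, and GGGACTTTC on the opposite strand from -153 to -145, a motif of 0.289% of windows. Neither window held TGAGTCA (4.46% of windows) or TGTGGT (14% of windows). These matches describe letters only. Of the 6 genes, 3 had a window in the table used here (Tnfsf11, Csf1 and Tnfrsf11a).

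Tnfrsf11b encodes OPG, the soluble decoy that keeps RANKL from RANK. Its probe set 1449033_at stood high in its own range on every array. It scored 82.2, 81.3, 87.9 and 83.3 on the SSC arrays of experiments 1 to 4, and 72.5, 79.3, 82.6 and 82.2 on the BCSP arrays. The mean was 83.7 ± 2.97 in SSCs and 79.1 ± 4.67 in BCSPs (SD, n = 4 each). The BCSP array of experiment 1 was the lowest for OPG, as it was for 1419083_at of RANKL.

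The second OPG probe set, 1418309_at, was below 0 on every array. It scored -17.6, -69.1, -77.7 and -34.7 in SSCs of experiments 1 to 4, and -15.0, -40.7, -79.7 and -41.0 in BCSPs. The probe sets of OPG thus disagreed on all 8 arrays. No position of the probes along the transcripts was used here. Both second probe sets were lowest in experiment 3, in SSCs as in BCSPs, and highest in experiment 1.

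In the actin control, the probe set at the 3′ end outscored that at the 5′ end by most points in experiment 3. Each end is scored within its own range. The difference is therefore no ratio of signals and does not measure how far a transcript is covered towards its 5′ end. The difference was 59.6 points on the SSC array and 64.9 points on the BCSP array of experiment 3, against 23.1 to 44.2 points on the other 6 arrays. The same difference for Gapdh did not single out experiment 3, with 54.7 points in SSCs and 49.1 points in BCSPs, against 53.9 points in SSCs and 71.9 points in BCSPs of experiment 4. The part of RNA quality in the low scores of 1451944_a_at and 1418309_at was not tested.

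**Figure D2:**
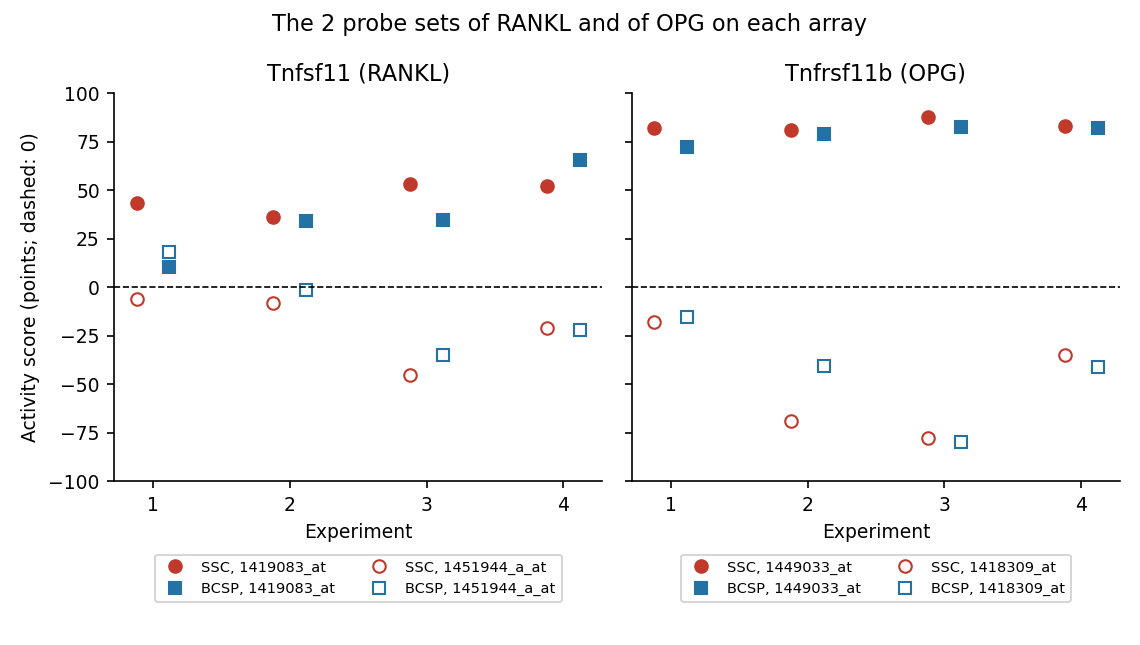
Activity score (y axis, points) of both probe sets of Tnfsf11 (left) and of Tnfrsf11b (right) on each SSC and BCSP array, by experiment (x axis, which has no order). Filled points are the probe set above 0 on all 8 arrays, and open points are the other one, which is lowest in experiment 3 in both populations.

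Csf1 encodes M-CSF, the growth factor that osteoclast precursors need to survive and divide, and its 4 probe sets were below 0 throughout. The highest, 1425155_x_at, whose suffix marks probes that may bind other transcripts, scored -45.1, -26.5, -35.4 and -42.1 in SSCs of experiments 1 to 4 and -20.9, -64.2, -26.9 and -53.0 in BCSPs. The SSC values lay within the range of the BCSP values. 1425154_a_at averaged -56.1 ± 10.1 in SSCs and -55.1 ± 17.9 in BCSPs (SD, n = 4 each). 1460220_a_at and 1448914_a_at lay between -89.0 and -36.3 and between -97.3 and -57.7 over all arrays, and both were highest in experiment 1 in each population.

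Il34 encodes IL-34, the second ligand of CSF1R, which shares little sequence with M-CSF. It scored -76.0, -74.8, -71.3 and -41.3 in SSCs of experiments 1 to 4 and -40.8, -69.3, -80.9 and -61.2 in BCSPs. The highest SSC array came from experiment 4 and the highest BCSP array from experiment 1, and the groups overlapped. Its mean was -65.8 ± 16.5 in SSCs and -63.1 ± 16.9 in BCSPs (SD, n = 4 each).

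Tnfrsf11a encodes RANK, which osteoclast precursors carry. Its probe set 1430259_at scored -19.1, -51.0, -78.8 and -45.3 in SSCs of experiments 1 to 4 and -19.7, -48.1, -72.6 and -60.8 in BCSPs. Arrays of the same experiment were close and the experiments were far apart, with 95.7% of the variance between experiments and 0.177% between populations. The other RANK probe set, 1419214_at, lay between -76.8 and -38.3 in SSCs and between -71.8 and -48.4 in BCSPs.

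Csf1r encodes CSF1R, the receptor tyrosine kinase of monocytes, macrophages and osteoclasts. Its probe set 1419873_s_at, whose suffix marks probes shared with transcripts of other genes, scored -41.5, -55.8, -57.4 and -37.8 in SSCs of experiments 1 to 4 and -44.1, -69.8, -63.6 and -51.7 in BCSPs. 1423593_a_at scored -57.0, -75.8, -58.4 and -55.4 in SSCs and -52.4, -90.2, -83.9 and -82.9 in BCSPs. The third probe set, 1419872_at, lay between -76.8 and -51.7 in SSCs and between -90.1 and -33.3 in BCSPs. All 3 Csf1r probe sets were below the threshold on all 8 arrays and overlapped between the populations.

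The comparison of SSCs with BCSPs asks whether the stem cell and its progenitor differ in these signals, and no member was distinguishable. Of the 14 probe sets, 0 passed limma at an adjusted p under 0.05 (adjusted p = 1 for each), where 0% of all 45037 probe sets did. At an unadjusted p under 0.05 there were 0 members and 2.4% of all probe sets. The populations overlapped for all 14 members, while the populations did not overlap for 1.43% of all probe sets (0.653% higher and 0.773% lower in SSCs). Differences of SSC minus BCSP were positive for 7 members and negative for 7, from -10.1 to 15.7 points, with a median of 0.359 points for the members and -0.605 points for all probe sets. Deviations of arrays from the same experiment were related, so the experiment was also fitted as a replicate block. That fit gave 0 members at an unadjusted p under 0.05 and 5.04% of all probe sets.

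For RANKL the difference of SSC minus BCSP was 10.2 points by 1419083_at (limma, 95% confidence interval -16.4 to 36.7) and -10.1 points by 1451944_a_at (-46.8 to 26.6). The probe sets thus differed in sign. By 1419083_at the SSC array was higher in 3 of 4 experiments, by 33.0, 2.29 and 18.8 points in experiments 1 to 3, and lower in experiment 4 (-13.4 points). Permuting the 1419083_at scores exactly (two-sided) gave p = 0.486 over 70 assignments of the arrays, where the smallest possible p is 0.0286. Without the BCSP array of experiment 1 the difference was 1.51 points. In the lymphocyte, osteoclast and macrophage lists, that array was highest of the 8 for more genes than it was lowest. Among lymphocyte genes it was highest for Ighm (59.6, others -40.2 to -10.5), Cd79a, Cd3g and Cd3e. It was lowest for Ms4a1 (-69.5, others -68.6 to -23.2). Among osteoclast genes it was highest for Oscar (8.38, others -68.7 to -31.3), Calcr, Clcn7 and Car2. It was lowest for Ostm1 (-62.9, others -34.9 to -5.47). Among macrophage genes it was highest for Cd14, Spi1 and Tyrobp and lowest for no gene. Among marrow stroma and adipocyte genes it was highest for Cxcl12 (78.6, others -69.4 to 15.9) and Adipoq. It was lowest for Vcam1 (48.0, others 53.8 to 66.3) and Pparg. Of these, only Ighm, Oscar, Cxcl12 and Vcam1 were above 0 on that array. Ighm, Cxcl12 and Oscar were read by the highest of 11, 3 and 2 probe sets. The part of other cells in the RANKL score of that array was not tested. With exchanges only within experiments the exact p was 0.375, where 16 exchanges allow no p under 0.125.

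For OPG the difference by 1449033_at was 4.52 points (limma, 95% confidence interval -3.16 to 12.2), and the SSC array was higher in 4 of 4 experiments, by 9.67, 1.95, 5.32 and 1.12 points. The OPG difference was 2.30 points when the BCSP array of experiment 1 was left out. The exact p was 0.2 over all assignments and 0.125 within experiments, the smallest that 4 pairs allow. Of the 14 members, 2 were higher in SSCs in every experiment, OPG by this probe set and Csf1r by 1419873_s_at, where 5.43% of all probe sets were. The second OPG probe set gave -5.67 points (-45.4 to 34.1) and was higher in SSCs in 2 of 4 experiments. Its interval is wide and also holds differences several times that of the first.

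The largest difference among the members was that of Csf1r by 1423593_a_at, at 15.7 points (limma, 95% confidence interval -6.28 to 37.6, unadjusted p = 0.141), between scores that were all below the threshold. The SSC array was higher in 3 of 4 experiments, and the exact p was 0.143. The Csf1r probe set 1419873_s_at gave 9.18 points (-12.8 to 31.2) and 1419872_at gave -0.333 points (-30.3 to 29.6). For Il34 the difference was -2.79 points (-28.5 to 22.9). For Csf1 it lay between -5.06 and 4.01 points over the 4 probe sets, and for Tnfrsf11a it was 1.73 and -4.72 points. These intervals come from the fit without a block, and their half-width ran from 7.68 to 39.7 points. In that fit, only for OPG by 1449033_at could a difference of the order of 10 points have been told from 0. With the experiment as a block the interval was -1.02 to 10.1 points for OPG by 1449033_at. It was -10.9 to 31.2 points for RANKL by 1419083_at, and both contain 0.

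**Figure D3:**
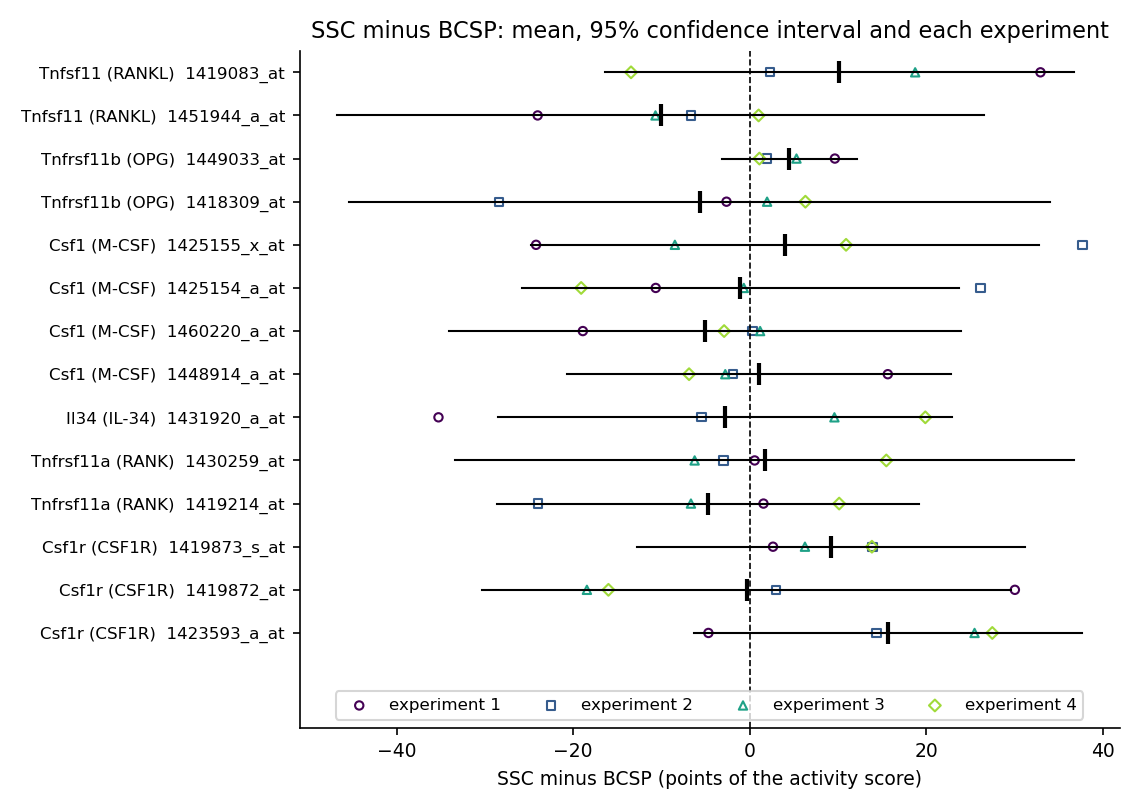
Difference of SSC minus BCSP (x axis, points of the activity score) for each member probe set. The vertical bar is the mean, the line its 95% confidence interval from limma, and open symbols give the 4 experiments. Every interval contains 0, and only OPG 1449033_at and Csf1r 1419873_s_at have all 4 experiments on 1 side.

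The members varied chiefly between experiments. Of 7 degrees of freedom 3 fall to the experiments and 1 to the populations, so values without any structure would place 42.9% of the variance between experiments and 14.3% between populations. The share of a probe set's variance between experiments had a median of 70.4% over the members and 62.2% over all probe sets, and that between populations a median of 2.03% over the members and 4.94% over all probe sets. The share between experiments was the larger for 14 of 14 members and for 90.9% of all probe sets. The range of the 4 experiment means was 7.95 points for OPG by 1449033_at and reached 62.4 points for OPG by 1418309_at. Experiment 1 had the highest mean for 8 of the 14 members, where it did so for 34.3% of all probe sets. Experiment 3 had the lowest mean for 6 of them, against 36.5% of all probe sets. For 1419083_at of RANKL the order was another one, with experiment means of 26.9, 35.4, 44.1 and 59.1 in experiments 1 to 4.

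The genes through which RANKL is known to be induced were partly above threshold. Of 19 measured genes, each represented by the probe set of highest mean, 10 scored above 0 on all 8 arrays, 3 on some and 6 on none, where 25.0% of all genes were above 0 on all 8. Pth1r, the receptor of parathyroid hormone, averaged 95.5 ± 3.50 in SSCs and 94.5 ± 2.29 in BCSPs (SD, n = 4 each). Il11, an interleukin-6 family cytokine that raises RANKL in osteoblasts, averaged 92.1 ± 8.03 in SSCs and 84.1 ± 14.0 in BCSPs (SD, n = 4 each). The receptor genes Osmr, Lifr and Il6st of that family and the interleukin-1 receptor gene Il1r1 were also above 0 on all 8 arrays, but only by 1 of 3 probe sets for Osmr and for Lifr, 1 of 4 for Il6st and 1 of 2 for Il1r1. Tnfrsf1a, a receptor of TNF, was above 0 by its 1 probe set and the vitamin D receptor gene Vdr by 2 of 2. Vdr lay between 50.6 and 66.8 in SSCs and between 53.4 and 59.3 in BCSPs.

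Of the cytokine genes of the list, Il1a, Il1b, Tnf and Osm scored below 0 on every array. Il6 was above 0 on 4 arrays (-5.46 to 19.4 in SSCs and -5.01 to 27.2 in BCSPs). Lif was above 0 on all 8, but only by 1 of its 2 probe sets. Il1a averaged -84.4 ± 8.86 in SSCs and -81.0 ± 12.8 in BCSPs (SD, n = 4 each). Ptger2 and Ptger4, the prostaglandin E2 receptor genes through which prostaglandin raises RANKL, were below 0 on all arrays too. Ptger4 lay between -32.4 and -11.2 in SSCs and between -48.4 and -10.4 in BCSPs. None of the 19 genes passed limma between SSCs and BCSPs in the fit with 1 probe set per gene, where 0% of 18193 genes did. At an unadjusted p under 0.05 there were 0 of the 19, with 2.56% of all genes, and the median of their differences was -0.215 points, against -0.998 points for all genes.

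Where 25.0% of all genes were above 0 on all 8 arrays, 4 of 7 genes for release of RANKL and for other partners of the members were. They were Mmp14 and Adam17, proteases that can release RANKL from the membrane, Sdc1, a proteoglycan reported to bind IL-34, and Lgr4, a receptor that can bind RANKL in place of RANK. Each was above 0 on all arrays by 1 probe set, of 3 for Mmp14 and for Adam17, 4 for Sdc1 and 2 for Lgr4. Lgr4 averaged 92.0 ± 1.48 in SSCs and 94.2 ± 1.18 in BCSPs (SD, n = 4 each), and Mmp14 averaged 64.6 ± 12.0 in SSCs and 63.4 ± 5.01 in BCSPs (SD, n = 4 each). Tnfsf10 (TRAIL), which OPG also binds, was below 0 on every array, and Adam10 was above 0 on 1 array. No gene of the list passed limma.

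Other factors by which skeletal cells act on osteoclasts were measured for 17 genes, of which 9 were above 0 on all 8 arrays, 3 on some and 5 on none. Among all genes 25.0% were above 0 on all 8. Wnt16, which restrains osteoclast formation, averaged 94.7 ± 5.16 in SSCs and 95.4 ± 2.58 in BCSPs (SD, n = 4 each). Wnt5a, which raises RANK in precursors, lay between 83.3 and 91.6 in SSCs and between 82.1 and 95.3 in BCSPs. Tgfb2, Vegfa, Tgfb3, Mmp13, Igf1, Sfrp1 and Efnb2 completed the 9. Only a part of the probe sets was above 0 on all arrays for Wnt5a and Tgfb2 (3 of 4 each), Igf1 (2 of 4), Vegfa (1 of 2), Efnb2 (1 of 4) and Sfrp1 (1 of 5). Sema3a, a guidance protein that restrains osteoclasts, and the monocyte chemokine genes Ccl2 and Ccl7 were below 0 on every array. Ccl7 averaged -66.0 ± 24.6 in SSCs and -45.7 ± 20.8 in BCSPs (SD, n = 4 each). None of these genes passed limma.

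Downstream parts of RANK and CSF1R signalling were above 0 on all 8 arrays for 6 of 21 measured genes (28.6%), near the 25.0% of all genes. These were Fos, Nfatc1, Map3k7, Tab2, Ikbkg and Rela, which many cell types use. Only 2 of 6 probe sets of Map3k7 and 1 of 6 of Ikbkg were above 0 on all arrays, against every probe set of Fos, Tab2 and Rela. Nfatc1, the transcription factor that RANKL induces in osteoclast precursors, averaged 82.6 ± 4.97 in SSCs and 84.4 ± 7.82 in BCSPs (SD, n = 4 each), and 3 of its 5 probe sets were above 0 on all arrays. Btk, Syk and Plcg2, kinases and a phospholipase of the hematopoietic branch of this pathway, were below 0 on every array. Grb2, an adaptor of receptor kinases, was also below 0 on every array, between -88.2 and -17.5 in SSCs and between -85.8 and -44.6 in BCSPs. None of the 21 passed limma.

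**Figure D4:**
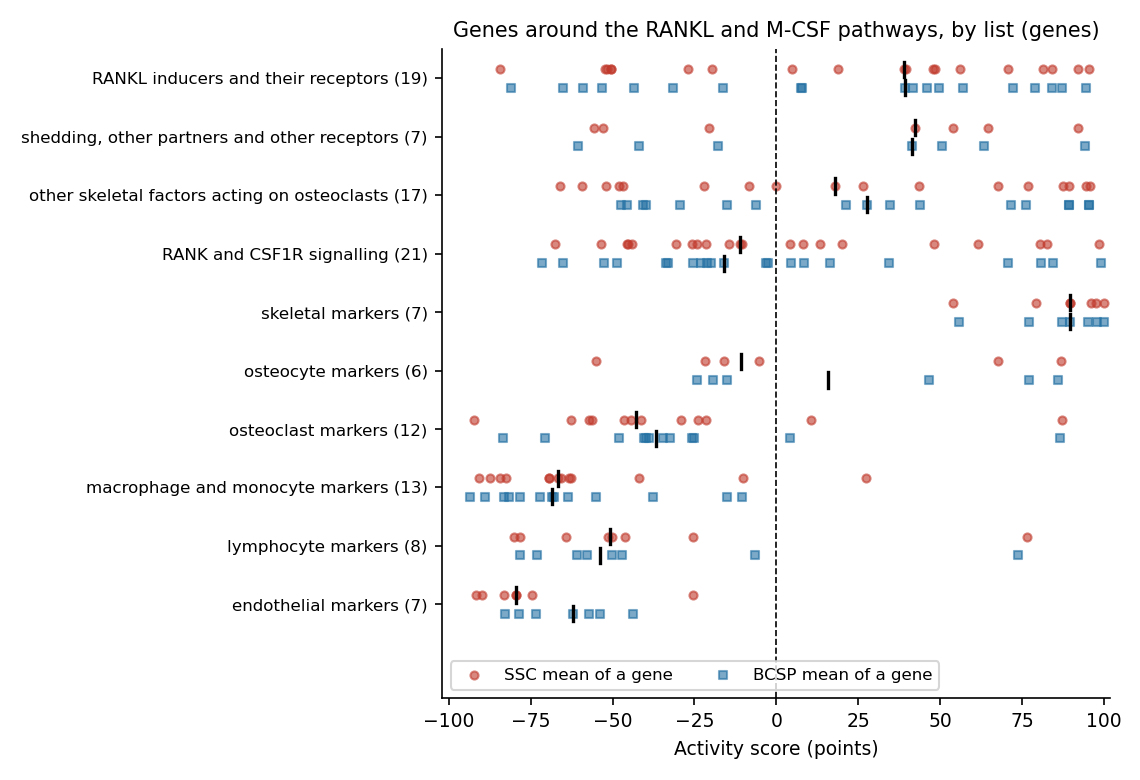
Mean activity score of each gene (points) in SSCs and in BCSPs, by list, with the number of measured genes in parentheses; black bars give the median of the gene means and the dashed line is the threshold of 0. The 7 skeletal markers lie above 0, while osteoclast, macrophage, lymphocyte and endothelial markers lie mostly below it.

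Markers of the cells that carry RANK and CSF1R were largely below threshold. Of 12 osteoclast genes, 1 was above 0 on all 8 arrays and 9 on none, and array medians of the list lay between -56.1 and -32.7 in SSCs and between -39.1 and -18.8 in BCSPs. The 1 was Ctsk, the collagen-degrading protease of osteoclasts, which periosteal and other mesenchymal skeletal cells also express. It averaged 87.3 ± 4.07 in SSCs and 86.7 ± 3.32 in BCSPs (SD, n = 4 each). Itgb3, an integrin subunit of osteoclasts and of other cells, was above 0 on 4 arrays (-8.00 to 45.0 in SSCs and -9.04 to 29.0 in BCSPs), and Oscar on the BCSP array of experiment 1 alone. The other 9, among them Acp5, Calcr, Dcstamp, Ocstamp, Atp6v0d2 and Car2, were below 0 on every array, and Car2, a carbonic anhydrase of osteoclasts, lay between -94.7 and -88.5 in SSCs and between -89.7 and -73.7 in BCSPs. Of 13 macrophage and monocyte genes, 12 were below 0 on all 8 arrays, with array medians from -72.2 to -67.8 in SSCs and from -78.5 to -61.8 in BCSPs. Cd14 lay nearest to its threshold (-13.2 to -6.05 in SSCs and -15.0 to -5.07 in BCSPs), and the phagocyte genes Fcer1g and Cd68 were between -99.3 and -79.3 in SSCs and between -98.3 and -82.0 in BCSPs. The other gene was Laptm5, which was above 0 on 3 SSC arrays and no BCSP array by the highest of its 5 probe sets.

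Among other cells known to make these cytokines, lymphocyte genes were above 0 on all 8 arrays for 1 of 8, with array medians from -65.2 to -39.4 in SSCs and from -64.7 to -40.5 in BCSPs. That gene was Cd8a, by 1 of 5 probe sets, while Cd3e and Cd3g, which define T cells, were below 0 on every array. Ighm was above 0 on the BCSP array of experiment 1 alone. The 7 endothelial genes were below 0 throughout, with array medians from -82.5 to -77.3 in SSCs and from -79.2 to -46.1 in BCSPs. The median of their differences was -12.9 points, and 2 of them, Robo4 and Emcn, had an unadjusted p under 0.05 in limma, both lower in SSCs. Cdh5 and Pecam1 differed the other way, by 28.6 and 3.36 points, and did not pass either. Endothelial cells, which can make OPG, carry Tie2 and fall outside the gate of both populations. Of 6 osteocyte genes, 2 (Phex and Dmp1) were above 0 on all 8 arrays and 3 (Pdpn, Sost and Mepe) on none. Phex was so by 1 of 2 probe sets and Dmp1 by 2 of 3. Mepe, a matrix protein of osteocytes, averaged -55.1 ± 28.6 in SSCs and -19.4 ± 11.2 in BCSPs (SD, n = 4 each), with an unadjusted p of 0.0373 in limma that did not pass adjustment. Fgf23 was above 0 on 5 arrays, with -67.2 to 68.2 in SSCs and 24.2 to 85.7 in BCSPs. The part of osteocytes, a known source of RANKL, in its score was not tested. Of 7 marrow stroma and adipocyte genes, cells known as sources of M-CSF, 1 was above 0 on all 8 arrays, 2 on some and 4 on none. The 1 was Vcam1, an adhesion molecule of stromal cells, by 1 of 3 probe sets. Cxcl12 was above 0 on 3 arrays, and Adipoq and Pparg, which mark adipocytes, were below 0 on every array.

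Markers bore on the labelled identity of the cells as follows. The 7 measured cartilage and bone genes, among them Sox9, Col2a1, Acan, Col10a1, Sp7 and Col1a1, were above 0 on all 8 arrays, with array medians of 87.3 to 95.3 in SSCs and 86.0 to 94.5 in BCSPs. The genes of the antigens sorted against, Ptprc, Tek, Thy1 and Enpep, were below 0 on every array. Itgav (CD51), sorted for in both populations, was above 0 on all 8 by 1 of 5 probe sets. Cd200, sorted for in SSCs only, was above 0 on all 8 as well, with 96.04 to 99.57 in SSCs and 94.25 to 99.55 in BCSPs. Eng, the gene of CD105, was -64.4 to -29.4 in SSCs and -1.02 to 50.1 in BCSPs by the higher of its 2 probe sets. The populations did not overlap, as for 1.43% of all probe sets. Just below its threshold were 2 of 4 BCSP arrays (-0.37 and -1.02), although BCSPs were sorted for CD105. The difference of SSC minus BCSP was -58.4 points, with an unadjusted p of 0.00349 in limma that did not pass adjustment.

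The profile of each member over the 8 arrays was set against the other 18187 genes as a description. These arrays form 4 pairs that share an experiment, so the 8 points are not independent. For Tnfsf11 the 3 highest Pearson coefficients were those of Senp2 (r = 0.982), Myo18b (0.969) and Kat14 (0.962). For Tnfrsf11b they were those of Dleu2 (0.990), Cry1 (0.952) and Ninl (0.949), and for Csf1 those of Pard3b, Rasgef1c and 4930403D09Rik (0.977, 0.966 and 0.954). Slc6a20a, Il1f8 and Eps15l1 were nearest to Il34 (0.978, 0.976 and 0.946), Lrwd1, Chmp6 and Wdr5 to Tnfrsf11a (0.995, 0.989 and 0.987), and Tead4, 2010003K11Rik and Ptprn2 to Csf1r (0.971, 0.961 and 0.932). Between the members themselves, Tnfsf11 and Tnfrsf11b had the highest coefficient (0.794), and both were lowest on the BCSP array of experiment 1. With 8 arrays and this many genes, coefficients of this size arise readily.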

How the data were processed

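After sorting, the authors amplified the RNA repeatedly for Affymetrix hybridization. Normalization was done by them on Gene Expression Commons, where StepMiner sets the threshold of a probe set. The values they deposited are the resulting activity score, which ran from -100.03 to 100 over 45101 probe sets. The sources used here do not give the summary of probes into probe sets. Names came from the platform annotation, where 34958 had 1 symbol, 932 had several and 9211 were not listed, and 64 control probe sets were left out.

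SSCs and BCSPs were compared over 45037 probe sets in R 4.3.3 by limma 3.58.1, using lmFit and a trended eBayes without a block, and Benjamini-Hochberg adjustment and a threshold of 0.05; no fold changes were computed. Fits by gene took the probe set with the highest mean over the 8 arrays. The fit was tested on simulated scores of independent arrays, with shifts larger than any difference of the members. That test had no experiment effect, so it does not bear on the pairing of the arrays. Array number limits the precision.

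For the BCSP array of experiment 2 the title and the description give different numbers, and it was taken as BCSP 2 by its description and experiment. Deviations from the group means correlated at 0.394, 0.164, 0.605 and 0.173 in experiments 1 to 4, so the numbers were taken to pair the arrays.

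All members were named with every probe set. For the other lists the rule was the 2 genes with the highest and the 2 with the lowest mean, with any gene past the test, and 3 genes of like profile per member. In the silent reference these were Cela1 and Gfap at the top and Cyp2e1 and Gcg at the bottom. Further list genes are named as examples chosen after their values were seen. The members and lists were chosen with earlier results of these data known. Of the list genes, 10 had no own probe set and were not analysed here. Alternatives were the block, quantile normalization, centring, an inverse normal scale, a filter on low scores, 1 probe set or the mean of probe sets per gene, eBayes without trend, the methods' unpaired test, array weights, and leaving out arrays or experiments.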

Additional observations from a re-analysis of the deposited data

Results flagged for a closer look

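A value was set apart where its gap to the nearest array of its population, divided by the population's range, exceeded Dixon's 95% critical value. This was examined in 122 groups of 4 arrays, of which 10 had such a value; chance gives about 1 in 20. Among the members, Csf1 by 1448914_a_at scored -57.7 on the SSC array of experiment 1 (others -97.3 to -94.7) and -73.4 on the BCSP array of experiment 1 (others -93.7 to -90.5). Il34 scored -41.3 on the SSC array of experiment 4 (others -76.0 to -71.3), and Csf1r by 1423593_a_at scored -75.8 on the SSC array of experiment 2 (others -58.4 to -55.4).

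Among other named genes, the SSC array of experiment 3 was lowest for Il11 (80.1, others 95.8 to 96.3), Wnt16 (86.9, others 96.9 to 97.5) and Sost (-36.4, others -17.2 to -15.9). Fos was lowest on the SSC array of experiment 2 (97.1, others 98.9 to 99.0). Acan was highest on the SSC array of experiment 1 (98.0, others 97.5), and Col10a1 was lowest on the BCSP array of experiment 3 (57.1, others 82.2 to 85.8).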

How the results depend on the processing

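No member and no probe set passed an adjusted p under 0.05 in limma under any alternative run; the unadjusted count over all probe sets was 1081 in the reported fit, 2268 with the replicate block and 1094 by the methods' unpaired test. The block moved no difference and changed no call (adjusted p = 0.941 in limma for RANKL by 1419083_at and 0.933 for OPG by 1449033_at). The 2 member probe sets above 0 on every array also numbered 2 after quantile normalization, a setting chosen after seeing the data. Leaving out an array or an experiment could give no other count. The other member probe sets scored above 0 on 1 array at most, so it is no check of that result.

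Signs of small differences changed in places, and the cause was not tested. When each gene's probe sets were averaged, SSC minus BCSP was -0.575 points for Tnfrsf11b, -0.263 for Csf1 and -1.50 for Tnfrsf11a, and it was 0.0400 for Tnfsf11. With array weights it was 1.19 for Csf1 1425154_a_at, -0.714 for Csf1 1448914_a_at and 0.826 for Il34, and without a change of sign 3.11 for Tnfsf11 1419083_at, 3.01 for Tnfrsf11b 1449033_at, 10.8 for Csf1 1425155_x_at and 5.11 for Tnfrsf11a 1430259_at. Centring gave 0.0900 points for Csf1r 1419872_at, and the inverse normal scale, in normal units, 0.0674 for that probe set and -0.271 for Csf1 1448914_a_at.

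When arrays or experiments were left out, the difference ran from 1.51 to 20.0 points for Tnfsf11 1419083_at and from 2.30 to 5.67 for Tnfrsf11b 1449033_at. It ran from -18.3 to -0.699 for Tnfsf11 1451944_a_at and from -17.5 to 4.03 for Tnfrsf11b 1418309_at. For Csf1 it ran from -7.24 to 13.4 (1425155_x_at), -10.1 to 4.97 (1425154_a_at), -12.5 to 6.96 (1460220_a_at) and -8.57 to 5.79 (1448914_a_at). For Il34 it ran from -11.0 to 8.03. For Tnfrsf11a it ran from -8.09 to 11.9 (1430259_at) and -12.2 to 1.70 (1419214_at), and for Csf1r from 5.03 to 13.6 (1419873_s_at), -10.5 to 9.39 (1419872_at) and 11.4 to 24.0 (1423593_a_at). A score levels off near 100, and 4 arrays per population limit what could be detected.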
